A study of Mus musculus with 28 samples.

Results

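The 49 genes described here encode collagens, the enzymes that modify and crosslink them, and other proteins of the scar matrix, with genes of the cells that lay it down. They were chosen by name: 5 fibrillar collagens, 4 basement membrane collagens, 7 other collagens, 8 genes of collagen crosslinking and processing, 9 matrix glycoproteins, 4 proteoglycans, 6 matrix proteases or their inhibitors, and 6 genes of stellate cells and myofibroblasts. All 49 were found in each of the 3 deposited tables, which hold 17752 genes for liver, 56748 for the cultures with an NFATc3 knock-in and 21959 for the cultures with an ASK1 knock-in. A filter on low counts kept 49, 8 and 38 of them for testing.

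The study asked what NFATc3 and ASK1 in macrophages do in steatohepatitis. NFATc3 is a transcription factor switched on by calcineurin, and ASK1, the product of Map3k5, is a stress-activated kinase. Whole livers were taken from male mice that were 8 weeks old when a methionine- and choline-deficient diet began, and they ate it for 4 weeks. The 16 livers were labelled Lyz2-Cre (the controls), NFATc3-MKO (a macrophage knockout of NFATc3), ASK1-MKO (a macrophage knockout of ASK1) and MDKO (loss of both), with n = 4 each. Every liver, controls included, came from a mouse on this diet, and no liver from a mouse on ordinary food was analysed here. Lyz2 drives Cre in monocytes, macrophages and neutrophils, so hepatocytes and stellate cells would keep the targeted gene. The 12 cultures were labelled as bone marrow-derived macrophages (BMDMs), cultured over 7 days with 30% of the medium conditioned by L929 cells. They were labelled NFATc3-MKI or ASK1-MKI (macrophage knock-ins), each with controls of its own that carried Lyz2-Cre (n = 3 each). The labels do not say that the samples of a group came from separate cultures, so p-values measure only the spread between these samples.

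In a healthy liver the stellate cell stores vitamin A and makes little matrix. After injury it can become a myofibroblast, a contractile cell that secretes the fibrillar collagens I, III and V into the scar. New collagen chains are hydroxylated by the P4ha and Plod enzymes and folded with the chaperone Serpinh1 inside the cell, and enzymes of the lysyl oxidase family (Lox, Loxl1, Loxl2, Loxl3) crosslink collagen and elastin outside it. Matrix metalloproteinases break the matrix down and Timp proteins inhibit them. Macrophages take part as sources of signals to stellate cells and of proteases.

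Of the livers, 15 had a total of 20601146 to 30834525 counts, and the shallowest, MDKO replicate 3, had 8912104. Libraries of NFATc3-MKI and their controls held 7693464 to 9398163 counts, and those of ASK1-MKI with theirs 16051951 to 18728508. Levels of both targeted genes did not bear out the labels. Map3k5 was higher in livers labelled ASK1-MKO (log2 difference 0.58, edgeR adjusted p = 0.0262), Nfatc3 stood at −0.36 in livers labelled NFATc3-MKO (adjusted p = 0.12), and neither passed the threshold in livers labelled MDKO. In the cultures Nfatc3 was lower in NFATc3-MKI (−0.26, adjusted p = 0.0371) and Map3k5 lower in ASK1-MKI (−0.16, adjusted p = 0.0266). As hepatocytes and stellate cells would keep the targeted gene, levels in whole liver cannot settle whether the knockouts took place. Directions given here belong to the libraries so labelled.

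Among the livers, NFATc3-MKO replicate 2 had the highest level of all 16 for 36 of the 49 genes, and NFATc3-MKO replicate 1 had the lowest for 20. NFATc3-MKO replicate 1 lay above every control for 0 of the 49 genes and below every control for 27, whereas replicates 2, 3 and 4 lay above every control for 43, 24 and 37. Over all genes tested, NFATc3-MKO replicates 1 to 4 lay above every control for 25.1%, 33.1%, 34.9% and 23.9%. Lyz2-Cre replicate 2 was the high control, with a summed fibrillar collagen level of 189 CPM (counts scaled by edgeR to the same library size) against 37.9, 62.1 and 66.9 CPM in the other controls. Counts of genes called are given with and without these livers. In the NFATc3-MKI set, the macrophage genes C1qa, C1qb and C1qc were at 0 in all 6 libraries, and Mertk stood at 0.133 CPM at most. Csf1r stood at 274 to 287 CPM in those controls and at 345 to 407 CPM in NFATc3-MKI cultures, and Cd68 at 706 to 824 and 896 to 1033 CPM. The labelled cell type therefore has only part of its defining genes in that set.

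The transcript levels of the matrix genes in control livers spanned several orders of magnitude. Per kilobase of exon, the highest was Fn1, the fibronectin gene that hepatocytes also transcribe, at 110.4 ± 5.27 CPM per kilobase (SD, n = 4). Dcn, which encodes the small proteoglycan decorin that coats collagen fibrils, followed at 69.5 ± 1.72, and Col18a1, a basement membrane collagen that hepatocytes also make, at 60.6 ± 7.88. Fn1 was separated from Dcn by more than their spread, while the ranges of 1 SD around Dcn and Col18a1 overlapped. Tgfbi stood at 27.8 ± 1.79 and Bgn, the biglycan gene, at 18.5 ± 1.67, and the lowest of the 49 was Vcan, the gene of the large proteoglycan versican, at 0.0331 CPM per kilobase.

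Stretches upstream of 4 genes are shown as examples of their groups. They are a fibrillar collagen (Col3a1), the collagen chaperone (Serpinh1), the protease inhibitor (Timp1) and a prolyl hydroxylase (P4ha1). Each is the run of 250 bases before the RefSeq start site in GRCm38.p6, written 5′ to 3′ on the strand of the gene, and none of these bases lies in an annotated exon. Capitals mark the letters GGAAA, the core of NFAT sites, and ACGTG, the core of hypoxia response elements, on either strand, and where both meet they share a base. The stretches are Col3a1 at chr1:45311288-45311537 (plus strand), Serpinh1 at chr7:99353240-99353489 (minus strand), Timp1 at chrX:20869916-20870165 (plus strand) and P4ha1 at chr10:59323046-59323295 (plus strand).
Col3a1: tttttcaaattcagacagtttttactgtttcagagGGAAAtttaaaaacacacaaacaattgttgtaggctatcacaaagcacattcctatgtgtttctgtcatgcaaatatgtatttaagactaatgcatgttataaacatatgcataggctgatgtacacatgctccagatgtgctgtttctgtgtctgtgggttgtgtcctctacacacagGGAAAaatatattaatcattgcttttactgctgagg
Serpinh1: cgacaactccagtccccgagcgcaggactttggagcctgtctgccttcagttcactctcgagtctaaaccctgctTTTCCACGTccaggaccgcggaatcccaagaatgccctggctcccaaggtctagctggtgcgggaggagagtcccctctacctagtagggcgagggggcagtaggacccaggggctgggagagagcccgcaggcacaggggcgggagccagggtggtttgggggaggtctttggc
Timp1: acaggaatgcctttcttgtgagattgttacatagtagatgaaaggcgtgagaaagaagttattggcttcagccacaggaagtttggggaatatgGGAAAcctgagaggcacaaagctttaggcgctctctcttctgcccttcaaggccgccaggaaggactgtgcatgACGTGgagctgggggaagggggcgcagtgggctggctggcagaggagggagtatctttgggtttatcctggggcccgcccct
P4ha1: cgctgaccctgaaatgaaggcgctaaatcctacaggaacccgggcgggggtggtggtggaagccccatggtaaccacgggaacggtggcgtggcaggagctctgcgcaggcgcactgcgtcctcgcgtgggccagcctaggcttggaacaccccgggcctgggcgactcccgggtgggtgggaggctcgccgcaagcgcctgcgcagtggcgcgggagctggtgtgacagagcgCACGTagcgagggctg
Col3a1 has 2 matches to GGAAA and 0 to ACGTG, Serpinh1 and Timp1 have 1 of each, and P4ha1 has 0 and 1.

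The RefSeq table used here gave 34 such upstream windows for 31 of the 49 genes, against 32851 in all, and each was searched on both strands without removing overlaps between motifs. GGAAA occurred in 16 of the 34 (47.1%) and in 55.6% of all windows. ACGTG occurred in 7 (20.6%, all windows 16.6%): Col1a2, Col5a1, Mmp14, P4ha1, P4ha2, Serpinh1 and Timp1. TGANTCA, the AP-1 site, occurred in 2 (5.88%, all windows 6.75%), those of Col6a1 and Mmp13, CCAAT in 11 (32.4%, all windows 33.8%) and TATAAA in 5 (14.7%, all windows 12.4%). The CArG box, searched as CCWWWWWWGG with W for A or T, occurred in 0 of them and in 1.47% of all windows. These shares describe letters in these windows only. Lox, Loxl1, Eln and Tagln, which are among the genes called in NFATc3-MKO livers below, had no window, and neither had Col1a1.

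NFATc3-MKO livers were compared with Lyz2-Cre livers to see what a macrophage knockout of NFATc3 does to the matrix genes on the diet. Of the 49 genes, 6 rose and 0 fell: the crosslinking enzymes Lox and Loxl1, the elastin gene Eln, the basement membrane collagen Col4a2, and the contractile genes Acta2 and Tagln of myofibroblasts and smooth muscle. Over all genes tested, 3.77% were called higher and 4.67% lower. The median log2 difference of the 49 genes was 0.68, against 0.03 over all genes. It was positive for 44 of the 49, with 28 at an unadjusted p under 0.05. Over all 13309 genes tested, 3546 had an unadjusted p under 0.05. No gene of the 49 had groups free of overlap, while 1704 of all 13309 genes tested had. NFATc3-MKO replicate 1 lay within or below the controls for each of the 49. In 24 of the 49 genes exactly 3 of the 4 NFATc3-MKO livers lay above every control, a pattern that 12.1% of all genes had. With whole livers, more cells of a type and more RNA per cell cannot be told apart.

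**Figure D1:**
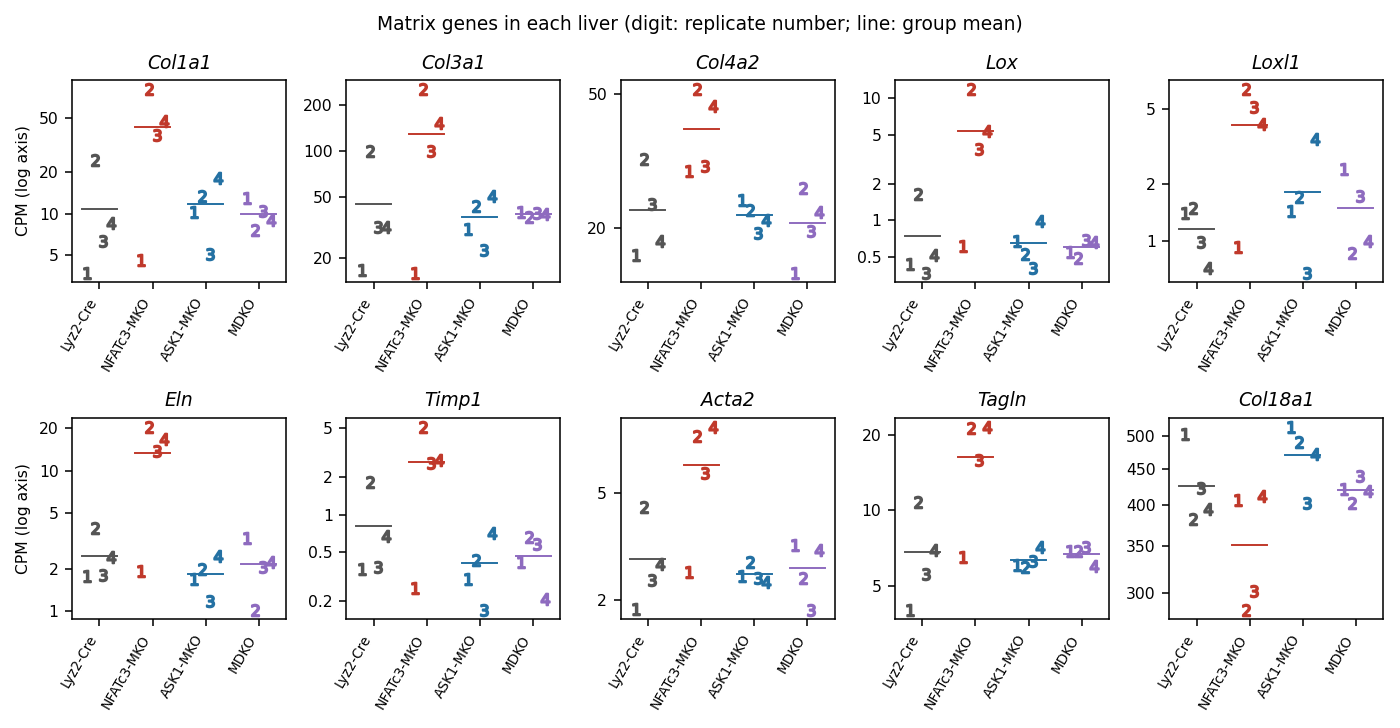
CPM of 10 matrix genes in each of the 16 livers on log axes, with 1 panel per gene, the digit giving the replicate number and the line the group mean. NFATc3-MKO replicates 2, 3 and 4 stand high and replicate 1 stands with the other groups for Col1a1, Lox, Eln and Timp1, while Col18a1 shows no such lift.

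The fibrillar collagens had the highest median difference of the 8 groups, 1.52 on the log2 scale, with a range of 1.01 to 1.98, but 0 of the 5 passed the threshold in edgeR, while all 5 had an unadjusted p under 0.05. Col1a1 (ENSMUSG00000001506, chr11:94936224-94953042), a chain of collagen I, stood at 4.57, 81.1, 37.8 and 47.8 CPM in NFATc3-MKO replicates 1 to 4, and at 3.70, 24.7, 6.31 and 8.51 CPM in the controls. NFATc3-MKO replicates 2 to 4 lay above all controls, and replicate 1 lay below all but 1. The log2 difference was 1.98 ± 0.66 (SE), with an edgeR adjusted p = 0.0713. Without NFATc3-MKO replicate 1 it was 2.37 (adjusted p = 0.0124), and without Lyz2-Cre replicate 2 it was 2.81 (adjusted p = 0.0172). Col3a1, the chain of collagen III, stood at 16.0, 251, 99.1 and 151 CPM, against 16.6, 100, 31.9 and 31.9 CPM. Here NFATc3-MKO replicate 3 lay just under Lyz2-Cre replicate 2, and the difference was 1.52 ± 0.60 (adjusted p = 0.122; 0.0192 without NFATc3-MKO replicate 1 and 0.0248 without Lyz2-Cre replicate 2). Col1a2, Col5a1 and Col5a2, the partners of these chains in collagens I and V, stood at 1.57, 1.01 and 1.10. The summed fibrillar level was 38.0, 492, 213.5 and 300.6 CPM in the NFATc3-MKO livers.

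Among the basement membrane collagens, Col4a2 rose and the others gave no call. Col4a2 (ENSMUSG00000031503, chr8:11312805-11449287), a chain of the collagen IV sheet, stood at 29.5, 51.4, 30.6 and 45.8 CPM, against 16.6, 32.1, 23.6 and 18.3 CPM in the controls. Only Lyz2-Cre replicate 2 reached into the range of the NFATc3-MKO livers. The log2 difference was 0.80 ± 0.22, with an edgeR adjusted p = 0.036. Its partner chain Col4a1, which starts next to it on the opposite strand, stood at 46.5, 95.8, 54.9 and 85.7 CPM against 32.0, 68.0, 42.1 and 34.3 CPM (0.68 ± 0.24, adjusted p = 0.0867). Col18a1 stood at 406, 284, 302 and 411 CPM against 504, 382, 422 and 394 CPM (−0.28 ± 0.14, adjusted p = 0.206), and Col15a1 at a difference of 0.02. The basement membrane group thus held its only call in collagen IV.

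Of the 7 other collagens, 0 passed the threshold in edgeR and 3 had an unadjusted p under 0.05, with differences of 0.20 for Col14a1, which lies along fibrils, to 1.09 for Col6a3, a chain of the beaded filaments of collagen VI. Col6a1, another chain of collagen VI, stood at 6.83, 27.1, 18.9 and 23.3 CPM against 9.45, 14.1, 7.95 and 11.1 CPM. NFATc3-MKO replicate 1 was the lowest of these 8 livers and the other NFATc3-MKO livers were the 3 highest (0.83 ± 0.33, edgeR adjusted p = 0.119; 0.0132 without NFATc3-MKO replicate 1).

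**Figure D2:**
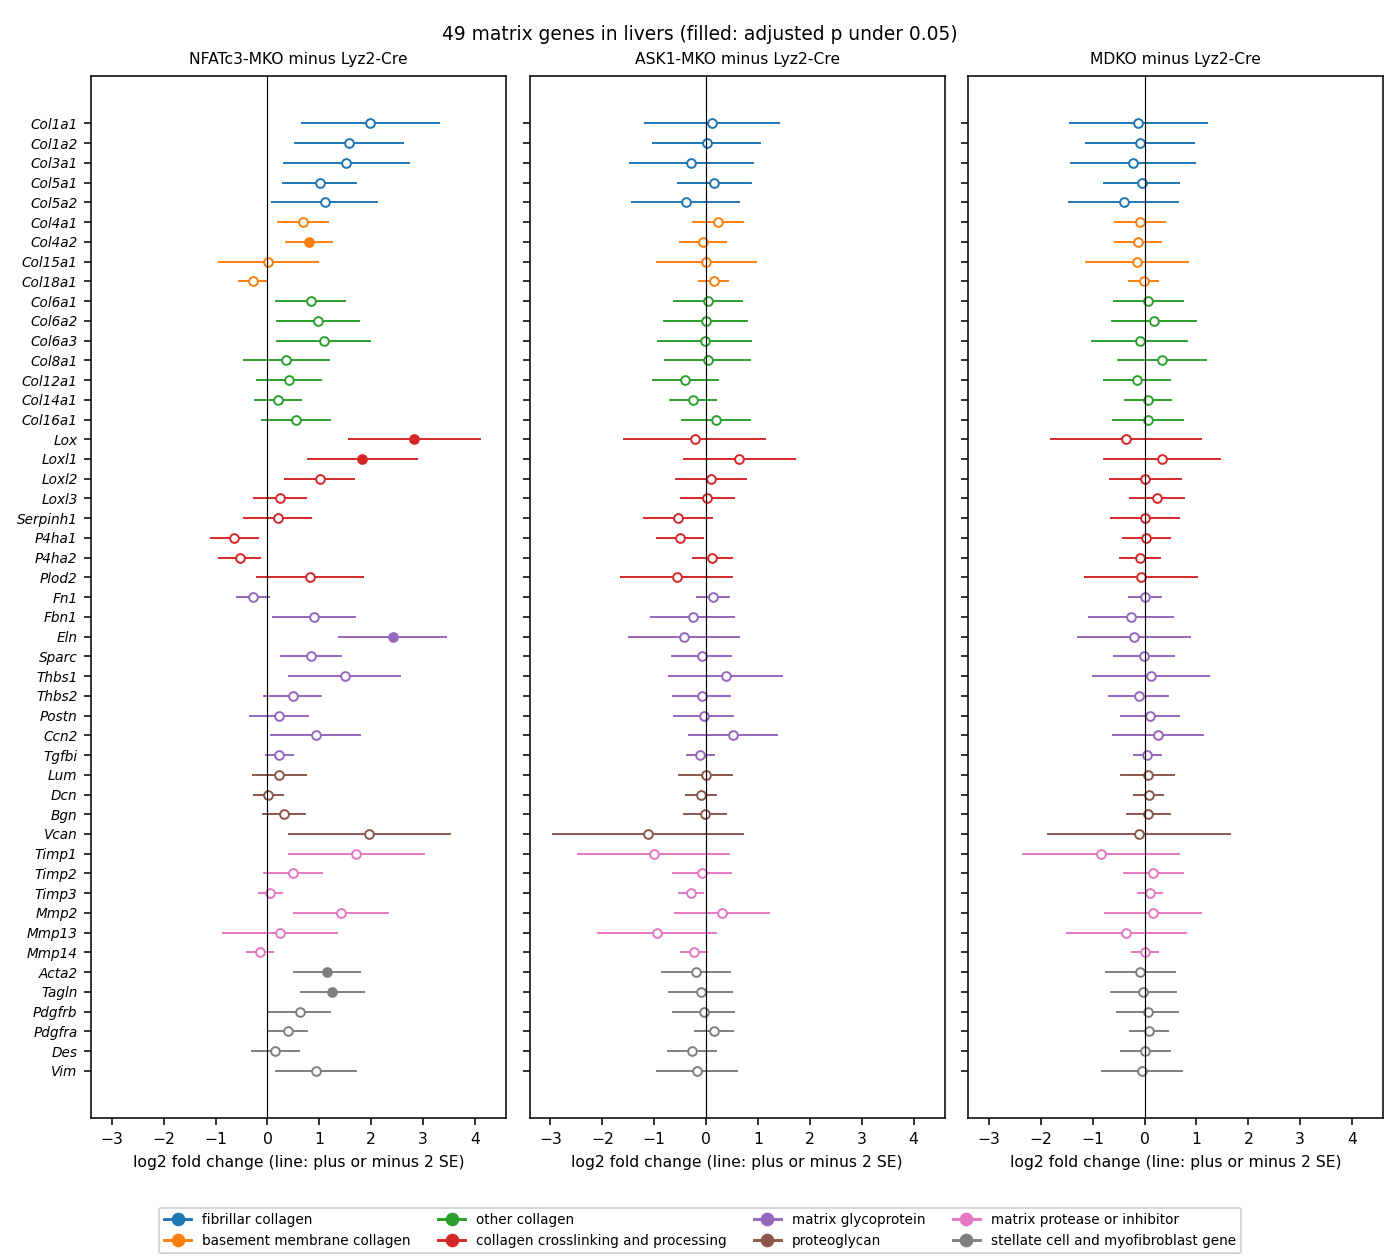
Log2 fold change of the 49 matrix genes in the 3 knockout groups against the same Lyz2-Cre livers, each point with a line of plus or minus 2 SE, coloured by role and filled where the adjusted p was under 0.05. Filled points are Col4a2, Lox, Loxl1, Eln, Acta2 and Tagln in the NFATc3-MKO panel, and the other panels hold 0.

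The genes of collagen crosslinking and processing went in both directions. Lox, the lysyl oxidase that starts crosslinking, stood at 0.612, 11.8, 3.85 and 5.42 CPM in NFATc3-MKO replicates 1 to 4, against 0.442, 1.66, 0.374 and 0.516 CPM in the controls. Replicates 2 to 4 were the 3 highest of these livers, and replicate 1 lay among the controls. The log2 difference was 2.83 ± 0.63, the largest of the 49, with an edgeR adjusted p = 0.014. It kept its call with NFATc3-MKO replicate 1 left out (3.22, adjusted p = 0.00399) and lost it without Lyz2-Cre replicate 3 (adjusted p = 0.0622) or Lyz2-Cre replicate 4. Loxl1 (ENSMUSG00000032334), which acts mainly on elastin, stood at 0.934, 6.36, 5.11 and 4.17 CPM against 1.41, 1.49, 0.982 and 0.722 CPM. Its replicates 2 to 4 lay well above the controls and replicate 1 inside them (1.83 ± 0.53, adjusted p = 0.0407), and 11 of the alternative settings ended this call.

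Serpinh1, P4ha1, P4ha2 and Plod2, which act inside the cell, had no call. Serpinh1, the collagen chaperone shown above, stood at 6.54, 28.8, 24.4 and 25.6 CPM against 16.6, 18.5, 23.2 and 15.8 CPM (0.20 ± 0.32, edgeR adjusted p = 0.727). P4ha1, a prolyl hydroxylase that stabilises the triple helix, stood at 6.73, 15.6, 7.99 and 11.9 CPM against 17.4, 14.5, 20.0 and 13.8 CPM (−0.64 ± 0.22, adjusted p = 0.0825), the lowest difference of the 49. For Serpinh1, NFATc3-MKO replicate 1 lay below every control and the other 3 above every control, and for P4ha1 only NFATc3-MKO replicate 2 reached into the controls from below. P4ha2, a second prolyl hydroxylase, stood at −0.54 (adjusted p = 0.0906), while Loxl2, Loxl3 and the lysyl hydroxylase Plod2 stood at 1.01, 0.24 and 0.82.

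Eln gave the firmest call among the glycoproteins. Eln (ENSMUSG00000029675, chr5:134702593-134747323), the elastin gene, stood at 1.93, 20.6, 13.7 and 17.0 CPM in the NFATc3-MKO livers and at 1.77, 3.91, 1.82 and 2.42 CPM in the controls. Replicates 2 to 4 lay at least 3 times above the highest control, and replicate 1 within the controls. The log2 difference was 2.42 ± 0.51, with an edgeR adjusted p = 0.0114, and the only single liver whose removal ended the call was Lyz2-Cre replicate 3 (adjusted p = 0.0534). Sparc, a collagen-binding protein, stood at 0.84 (adjusted p = 0.0769), Thbs1, an activator of latent TGF-beta, at 1.49 (adjusted p = 0.0932), and Fn1 at 1211, 978, 773 and 1278 CPM against 1237, 1379, 1271 and 1271 CPM (−0.28 ± 0.16, adjusted p = 0.25). Fn1 was the only one of the 9 glycoproteins with a difference under 0, and 3 of its 4 NFATc3-MKO livers lay below every control.

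None of the 4 proteoglycans and none of the 6 proteases or inhibitors passed the threshold, by edgeR's quasi-likelihood test. At an unadjusted p under 0.05 they held 1 and 2 genes. Dcn stood at 308, 465, 440 and 425 CPM against 420, 403, 400 and 399 CPM, a difference of 0.01 ± 0.14 (adjusted p = 0.962), and Vcan had the largest of its group at 1.96 (adjusted p = 0.118). Timp1 (ENSMUSG00000001131, chrX:20870166-20874735), the secreted inhibitor of collagen-degrading proteases, stood at 0.258, 5.11, 2.59 and 2.74 CPM against 0.362, 1.83, 0.374 and 0.67 CPM. NFATc3-MKO replicate 1 was the lowest and replicates 2 to 4 the highest of these livers (1.71 ± 0.65, adjusted p = 0.107; 0.017 without NFATc3-MKO replicate 1 and 0.0357 without Lyz2-Cre replicate 2). Mmp2, a gelatinase, stood at 1.41 (adjusted p = 0.0607), and Mmp14, the membrane protease that activates it, at 34.3, 51.9, 39.4 and 45.2 CPM against 44.4, 49.2, 46.0 and 50.2 CPM (−0.15 ± 0.13, adjusted p = 0.462).

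Of the genes of stellate cells and myofibroblasts, the contractile pair rose. Acta2 (ENSMUSG00000035783, chr19:34241090-34255590), smooth muscle actin, stood at 2.54, 8.13, 5.92 and 8.77 CPM against 1.85, 4.42, 2.38 and 2.73 CPM (1.15 ± 0.32, edgeR adjusted p = 0.0358). Tagln (chr9:45929619-45936058), the actin-binding protein transgelin, stood at 6.54, 21.2, 15.9 and 21.5 CPM against 4.02, 10.8, 5.61 and 6.96 CPM (1.25 ± 0.31, adjusted p = 0.0222). In both, NFATc3-MKO replicates 2 to 4 exceeded every control and replicate 1 lay among them. A predicted gene covers 62.4% of the exonic length of Tagln on the opposite strand, so its reads could be shared if counting ignored strand. Vim, the intermediate filament of mesenchymal cells, stood at 17.0, 99.4, 56.1 and 56.6 CPM against 19.4, 45.2, 25.7 and 29.4 CPM (0.94 ± 0.38, adjusted p = 0.13), and Pdgfra, Pdgfrb and Des at 0.41, 0.62 and 0.15.

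Markers of several cell types also differed between these livers, in both directions, and their part in the differences was not tested. The summed level of 12 stellate cell markers, which include Pdgfrb and Des, was 274.8 to 371.7 CPM in NFATc3-MKO livers and 348.8 to 423.4 CPM in controls. Of the 12, 6 had a difference above 0 and 6 below, and 1 was called lower. That of 10 fibroblast markers, which include Eln, was 50.6 to 109.8 against 53.1 to 78.9 CPM (1 of 7 tested higher), that of 8 smooth muscle markers, which include Acta2, Tagln and Des, 19.0 to 44.4 against 18.3 to 29.6 CPM (2 of 6 tested higher), and that of 6 mesothelial markers 266 to 608 against 274 to 418 CPM (no call). Cholangiocyte markers summed to 22.9 to 56.2 against 22.1 to 29.4 CPM (3 of 8 higher) and lipid-associated macrophage markers to 281 to 1338 against 208 to 511 CPM (1 of 8 higher). Neutrophil markers summed to 9.05 to 48.2 against 4.42 to 14.5 CPM (2 of 5 tested higher) and those of B and plasma cells to 17.6 to 55.9 against 7.30 to 12.2 CPM (2 of 5 tested higher). Those of Kupffer cells summed to 193 to 247 against 218 to 427 CPM (2 of 8 lower) and those of liver sinusoidal endothelial cells to 162.8 to 227.1 against 218.5 to 272.9 CPM (2 of 8 lower). Hepatocyte markers summed to 77190 to 122000 against 108000 to 140300 CPM (2 of 10 lower). Markers of stellate, smooth muscle and fibroblast cells all had levels above 0 CPM in both groups.

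**Figure D3:**
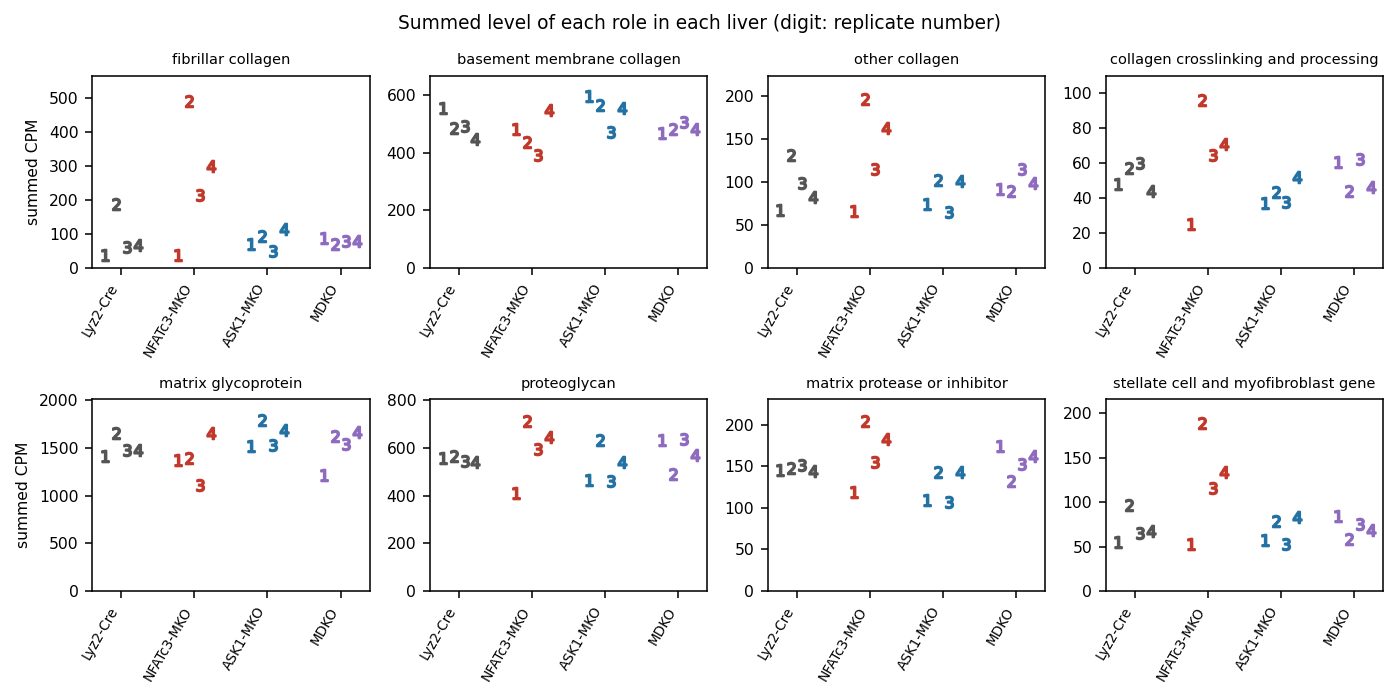
Summed CPM of each of the 8 groups of matrix genes in each liver, with axes from 0 and the digit giving the replicate number. Fibrillar collagens reached 492 CPM in NFATc3-MKO replicate 2 and 38.0 CPM in replicate 1, while the basement membrane sum, most of it Col18a1, lay between 390 and 595.5 CPM in all 16 livers.

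The number of genes called depended on single livers in both groups. It was 27, all higher, without NFATc3-MKO replicate 1 and 17, all higher, without Lyz2-Cre replicate 2, and the 6 genes called in all livers were among them each time. Over all genes the share called in either direction was then 11.8% and 9.77%. The number fell to 0 without Lyz2-Cre replicate 3, to 1 (Eln) without Lyz2-Cre replicate 4, to 2 (Lox and Eln) without Lyz2-Cre replicate 1 or without NFATc3-MKO replicate 4, and to 4 without NFATc3-MKO replicate 2 (3 of them higher, and P4ha1 lower) or replicate 3. With only these 2 groups in the fit it was 0, against 1.68% of all genes, with adjusted p of 0.0599 for Eln, 0.0772 for Loxl1, 0.081 for Lox, 0.106 for Tagln, 0.113 for Col4a2 and 0.13 for Acta2. DESeq2's Wald test called 14, against 12.9% of all genes. Without NFATc3-MKO replicate 1 the edgeR adjusted p was 0.0204 for Col4a2, 0.00653 for Acta2 and 0.0047 for Tagln, and without Lyz2-Cre replicate 2 it was 0.0126, 0.0152 and 0.00765. Col4a1, without a call in all livers, had 0.0337 and 0.0159 in these fits, and Vim had 0.0164 and 0.0648.

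**Figure D4:**
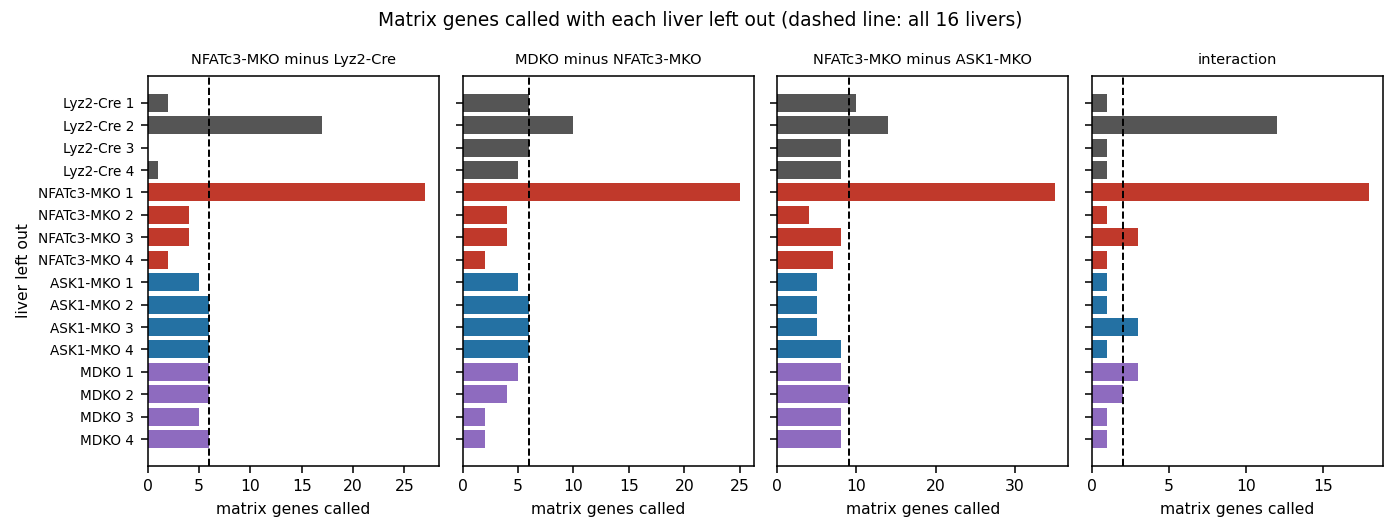
Number of matrix genes called with each of the 16 livers left out, in 4 comparisons, with a dashed line at the number called in all livers. The longest bar in each panel is that without NFATc3-MKO replicate 1, at 27, 25, 35 and 18 genes.

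ASK1-MKO livers were compared with the same controls for the effect of a macrophage knockout of ASK1. None of the 49 genes passed the threshold in edgeR's quasi-likelihood test, while over all genes 4.46% were called higher and 4% lower. At an unadjusted p under 0.05 there were 2 of the 49 genes, P4ha1 and Timp3, against 3119 of all 13309 tested. DESeq2 called 0 of the 49. The median difference was −0.05, against −0.03 over all genes, with 18 genes above 0 and 31 below. Since NFATc3-MKO and ASK1-MKO livers share their controls, their values are only set side by side.

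The fibrillar collagens of ASK1-MKO livers lay within the range of the controls. Col1a1 stood at 10.3, 13.5, 5.06 and 18.1 CPM, a difference of 0.11 with an interval of 2 SE from −1.19 to 1.41. Col3a1 stood at 31.0, 43.7, 22.6 and 50.9 CPM (−0.29 ± 0.59), Col4a1 at 0.24, Col6a1 at 0.04, Fn1 at 0.14, Dcn at −0.10, Mmp14 at −0.24, Acta2 at −0.19 and Vim at −0.18. Lox, at 0.68, 0.533, 0.408 and 0.988 CPM, also lay within the controls (−0.22, interval −1.58 to 1.14).

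The crosslinking and processing genes had no call, with 4 of 8 differences above 0 and a median of −0.10. Serpinh1 stood at 11.8, 12.1, 11.7 and 15.6 CPM in ASK1-MKO livers against 16.6, 18.5, 23.2 and 15.8 CPM, so the groups did not overlap, but the difference did not pass the threshold (−0.54 ± 0.33, edgeR adjusted p = 0.343). With only these 2 groups in the fit it did (adjusted p = 0.0437), and it was then the only one called. P4ha1 stood at 9.19, 12.3, 10.9 and 14.2 CPM against 17.4, 14.5, 20.0 and 13.8 CPM (−0.50 ± 0.22, adjusted p = 0.185). Timp3 (chr10:86300372-86349506), the matrix-bound Timp, stood at 49.6, 60.6, 49.1 and 54.8 CPM against 73.0, 58.9, 72.3 and 58.7 CPM (−0.30 ± 0.12, adjusted p = 0.123). In P4ha1 and Timp3 a single liver of ASK1-MKO reached into the controls. Des also had groups without overlap (−0.27, adjusted p = 0.526). Serpinh1 and Des were thus 2 of the 49 without overlap, against 2428 of all 13309 genes tested. The lowest difference of the 49 was that of Vcan (−1.13, adjusted p = 0.499), followed by Timp1 (−1.01, adjusted p = 0.43), both at under 1 CPM in all ASK1-MKO livers, and the highest was that of Loxl1 (0.64, adjusted p = 0.512).

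In livers labelled MDKO none of the 49 genes passed the threshold against the controls. By edgeR 0 genes were called, 0 had an unadjusted p under 0.05, and DESeq2 called 0. Over all 13309 genes 0% were called higher and 0% lower, with 35 at an unadjusted p under 0.05. The 49 genes thus had the count of the background. The median difference of the 49 genes was 0.00, with 25 above 0 and 24 below. Same-numbered MDKO and control livers deviated together, and with the replicate block the count was also 0.

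The intervals show how large a difference these livers could hide in the fit without the replicate block. As same-numbered MDKO and control livers deviated together, these intervals may be wider than those of a paired fit. In the unpaired fit 35 of all 13309 genes had an unadjusted p under 0.05, fewer than chance alone gives on average. Col1a1 stood at 12.9, 7.61, 10.5 and 8.91 CPM in MDKO livers, a difference of −0.12 with an interval of 2 SE from −1.45 to 1.20. For Lox, at 0.555, 0.491, 0.691 and 0.666 CPM, the interval ran from −1.80 to 1.10, and for Timp1 from −2.35 to 0.67. For the abundant genes it was narrow: Fn1 from −0.31 to 0.31, Dcn from −0.21 to 0.36 and Col18a1 from −0.30 to 0.26. MDKO livers lay close together in Col3a1, at 40.1, 36.6, 38.9 and 38.8 CPM, inside the control range of 16.6 to 100 CPM.

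MDKO livers were also compared with NFATc3-MKO livers, which differ from them by the ASK1 knockout label. Of the 49 genes, 0 rose and 6 fell: Lox, Eln, Col4a2, Timp1, Acta2 and Tagln. Over all genes 4.06% were called higher and 3.29% lower. The median difference was −0.67 against −0.03 over all genes, and 41 of the 49 lay below 0. This comparison shares the NFATc3-MKO livers with the one against the controls, so the opposite signs are not separate evidence.

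Lox fell by 3.18 on the log2 scale (SE 0.67, edgeR adjusted p = 0.0102) and Eln, at 3.33, 1.02, 2.07 and 2.25 CPM in MDKO livers, by 2.61 (adjusted p = 0.00872). Both lost their call only where the fit held the 2 groups alone (adjusted p = 0.0504 and 0.0542). Col4a2 stood at 14.8, 26.2, 19.6 and 22.2 CPM, below every NFATc3-MKO liver, and fell by 0.92 (SE 0.22, adjusted p = 0.0214). It was the only one of the 49 whose groups did not overlap, against 1694 of all 13309 genes tested. Timp1, at 0.416, 0.655, 0.576 and 0.208 CPM, fell by 2.55 (adjusted p = 0.04). Acta2, at 3.19, 2.41, 1.84 and 3.08 CPM, fell by 1.24 (adjusted p = 0.0296) and Tagln, at 6.89, 6.88, 7.14 and 6.00 CPM, by 1.28 (adjusted p = 0.0214). In Lox, Eln, Timp1, Acta2 and Tagln the overlap came from NFATc3-MKO replicate 1 alone.

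Other genes of the list did not pass the threshold in this comparison. Col1a1 stood at −2.10 (edgeR adjusted p = 0.064), Col3a1 at −1.74 (adjusted p = 0.086), Col4a1 at −0.77 (adjusted p = 0.0597), Col6a1 at −0.76 and Vim at −0.98. P4ha1, at 17.9, 14.9, 20.6 and 14.2 CPM in MDKO livers, had the highest difference of the 49 at 0.67 (adjusted p = 0.0736), and Serpinh1, Fn1, Dcn and Mmp14 stood at −0.19, 0.29, 0.06 and 0.15. The count of 6 became 25 without NFATc3-MKO replicate 1 and 10 without Lyz2-Cre replicate 2, when 10.6% and 7.43% of all genes were called in either direction. It became 2 (Lox and Eln) without MDKO replicate 3, MDKO replicate 4 or NFATc3-MKO replicate 4 (all genes 2.49%, 2.57% and 5.78%). It became 4 without MDKO replicate 2, NFATc3-MKO replicate 2 (3 lower, and P4ha1 higher) or NFATc3-MKO replicate 3 (all genes 5.43%, 6.08% and 4.23%). With only these 2 groups in the fit it was 0, against 2.18% of all genes, and DESeq2 called 17, against 12.5%.

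Against ASK1-MKO livers, MDKO livers differed in 1 of the 49 genes, with 3.46% of all genes called higher and 4.26% lower. Timp3 stood at 76.3, 59.3, 72.3 and 76.3 CPM in MDKO and at 49.6, 60.6, 49.1 and 54.8 CPM in ASK1-MKO livers, and rose by 0.41 on the log2 scale (SE 0.12, edgeR adjusted p = 0.0394). MDKO replicate 2 lay just under ASK1-MKO replicate 2, and the other MDKO livers lay above all ASK1-MKO livers. The count fell to 0 without any 1 of ASK1-MKO replicates 1, 3 and 4, MDKO replicates 1, 3 and 4 and NFATc3-MKO replicate 4, and with the replicate block Timp3 had an adjusted p = 0.0503. Without any 1 of those livers, 4.07% to 7.02% of all genes were called in either direction. Syn3 covers 21.3% of the exonic length of Timp3 on the opposite strand. The anchor genes of the other groups lay near 0, with Col1a1 at −0.24, Col3a1 at 0.06, Lox at −0.13, Fn1 at −0.14, Dcn at 0.17 and Vim at 0.13, and the median of the 49 was 0.07 against 0.03 over all genes.

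NFATc3-MKO and ASK1-MKO livers, compared directly, differed in 9 of the 49 genes, 8 higher in NFATc3-MKO and 1 lower. Over all genes 7.15% were called higher and 5.61% lower. The higher ones were Lox (3.05 ± 0.63, edgeR adjusted p = 0.00565), Vcan (3.09 ± 0.84, adjusted p = 0.0244), Eln (2.85 ± 0.52, adjusted p = 0.00253), Timp1 (2.72 ± 0.69, adjusted p = 0.0177), Tagln (1.36 ± 0.31, adjusted p = 0.00936), Acta2 (1.34 ± 0.32, adjusted p = 0.0128), Sparc (0.93 ± 0.29, adjusted p = 0.0434) and Col4a2 (0.85 ± 0.22, adjusted p = 0.0205). The lower one was P4ha2 (−0.66 ± 0.19, adjusted p = 0.0332). The median of the 49 genes was 0.80, against 0.02 over all genes, and 45 of the 49 lay above 0.

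Col4a2 and P4ha2 were the called genes whose groups did not overlap. Col4a2 stood at 24.3, 22.6, 19.4 and 21.2 CPM in ASK1-MKO livers, all below the 29.5 CPM of the lowest NFATc3-MKO liver. P4ha2 stood at 5.22, 4.87, 6.02 and 4.54 CPM in ASK1-MKO and at 3.44, 2.76, 4.29 and 2.53 CPM in NFATc3-MKO livers. Eln, at 1.70, 2.00, 1.19 and 2.49 CPM in ASK1-MKO livers, overlapped through NFATc3-MKO replicate 1 alone, as did Acta2, at 2.46, 2.77, 2.41 and 2.33 CPM. Vcan, at 0.189, 0.0667, 0.17 and 0.474 CPM against 0.322, 5.03, 0.962 and 1.35 CPM, rests on levels under 1 CPM in all ASK1-MKO livers and in 2 of the NFATc3-MKO livers. Timp3 and Fn1 also had groups without overlap but missed the threshold (0.35 and −0.43, adjusted p = 0.0526 and 0.0783). Groups without overlap were thus found in 4 of the 49 genes and in 1942 of all 13309 tested. Among the anchor genes without a call, Col1a1 stood at 1.87 (adjusted p = 0.0695), Col3a1 at 1.80 (adjusted p = 0.0616), Col4a1 at 0.44, Col6a1 at 0.80, Serpinh1 at 0.74, Dcn at 0.11, Mmp14 at 0.08 and Vim at 1.11.

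Lox, Eln, Acta2 and Tagln kept this call whichever liver was left out, with highest adjusted p of 0.0232, 0.0116, 0.0442 and 0.0326, and they also kept it with only the 2 groups in the fit. The count of 9 became 35 without NFATc3-MKO replicate 1 and 14 without Lyz2-Cre replicate 2, when 21.4% and 12.9% of all genes were called in either direction. It became 5 without ASK1-MKO replicate 1, 2 or 3 (all genes 8.11%, 6.94% and 8.27%) and 4 without NFATc3-MKO replicate 2 (all genes 9.75%). DESeq2 called 20, of which 17 were higher, against 17.1% of all genes.

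The interaction tests whether the difference that goes with the ASK1 label is another where NFATc3 is also labelled as targeted. It is the difference between MDKO and NFATc3-MKO livers, from which the difference between ASK1-MKO and Lyz2-Cre livers is subtracted. Of the 49 genes 1 was called above 0 and 1 below, while over all genes 8.17% were above and 8% below. P4ha1 (chr10:59323296-59373304) had an interaction of 1.17 ± 0.32 (edgeR adjusted p = 0.0186). Its level was 14.2 to 20.6 CPM in MDKO and 13.8 to 20.0 CPM in control livers, and 9.19 to 14.2 CPM in ASK1-MKO and 6.73 to 15.6 CPM in NFATc3-MKO livers. That call was kept whichever liver was left out, with a highest adjusted p of 0.0466. Lox had an interaction of −2.96 ± 0.95 (adjusted p = 0.043), which 14 of the alternative settings ended. The median of the 49 was −0.68, against −0.005 over all genes, with 38 below 0. Col4a1 and Eln missed the threshold (−1.01 and −2.18, adjusted p = 0.0534 and 0.0545), Col1a1 stood at −2.22 (adjusted p = 0.116) and Acta2 at −1.05 (adjusted p = 0.131). The count of 2 became 18 without NFATc3-MKO replicate 1 and 12 without Lyz2-Cre replicate 2, when 16% and 16.3% of all genes were called in either direction. It became 3 without MDKO replicate 1, NFATc3-MKO replicate 3 or ASK1-MKO replicate 3 (all genes 15.9%, 17.1% and 14.4%). It was 1, P4ha1, without Lyz2-Cre replicate 1, 3 or 4, ASK1-MKO replicate 1, 2 or 4, MDKO replicate 3 or 4, or NFATc3-MKO replicate 2 or 4. In the fits with P4ha1 alone, 11.2% to 15.5% of all genes were called in either direction. DESeq2 called 7, against 19.3% of all genes.

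The cultures were read for the levels of the same genes. In control cultures of the ASK1-MKI set the highest levels per kilobase were those of Vim (395 ± 4.69 CPM per kilobase, SD, n = 3), Tgfbi (215.3 ± 3.10), Lox (142.5 ± 2.32), Mmp14 (79.9) and P4ha1 (66.4). Each of these exceeded the next by more than their SD. Tgfbi encodes a secreted matrix protein induced by TGF-beta. Fibrillar collagens were low there, with Col1a1 at 3.99, 3.06 and 2.76 CPM and Col3a1 at 0.338, 0.231 and 0.159 CPM. Eln was at 0 in all 6 libraries, for which the floor of 3 counts over a group allows 0.0556 CPM in controls and 0.06 CPM in ASK1-MKI cultures. Des had 0 counts in the controls and 2, 3 and 7 counts in ASK1-MKI cultures and was not tested.

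ASK1-MKI cultures differed from their controls in 32 of the 38 genes tested, 21 higher and 11 lower. Over all genes 24.6% were called higher and 24.5% lower, with a common biological coefficient of variation of 0.0214. The median difference of the 38 was 0.50 against 0.00 over all genes. Groups did not overlap in 31 of the 38, and in 6204 of all 11380 genes tested. The fibrillar and other collagens and the glycoproteins mostly rose, while the enzymes that hydroxylate and crosslink collagen mostly fell. By group the calls were 4 higher of 5 fibrillar collagens, 3 higher and 1 lower of 4 basement membrane collagens, 3 higher of 3 other collagens tested, and 1 higher and 4 lower of 7 crosslinking and processing genes. They were 6 higher and 1 lower of 7 glycoproteins, 1 and 1 of 3 proteoglycans, 2 and 3 of 6 proteases or inhibitors, and 1 and 1 of 3 stellate cell and myofibroblast genes. The 11 genes not tested had counts too low for the filter. Some genes with few counts in controls, such as Col3a1 and Serpinh1, passed it only through their level in ASK1-MKI cultures. The number called higher and the median thus depend partly on the filter.

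Most of the collagens that rose did so from very low levels. Several of them, such as Col3a1, passed the filter on low counts only through ASK1-MKI cultures. Col1a1 stood at 5.71, 6.25 and 5.84 CPM in ASK1-MKI cultures, above all 3 controls, and rose by 0.86 on the log2 scale (SE 0.16, edgeR adjusted p = 1.21e-06). Col3a1, at 1.38, 1.10 and 1.49 CPM, rose by 2.42 (adjusted p = 4.01e-07), Col5a2 by 2.00 and Col1a2 by 0.56. Col4a1 (chr8:11198423-11312826) stood at 4.96, 4.98 and 5.07 CPM against 0.45, 0.461 and 0.637 CPM, the largest rise of the 38 at 3.25 ± 0.25 (adjusted p = 1.39e-23), and Col4a2 rose by 2.04 and Col15a1 by 0.59. Col6a1 stood at 2.13, 2.31 and 2.92 CPM against 0.394, 0.346 and 0.69 CPM and rose by 2.34, Col6a3 rose by 2.96, and Col6a2 by 1.32, a call that ended without ASK1-MKI replicate 1 or control replicate 2 (adjusted p at most 0.0806). In each of these collagens all ASK1-MKI cultures lay above all controls. Col18a1 (chr10:77052178-77166548), the collagen with the highest level per kilobase of the control cultures, went the other way, from 38.5, 35.8 and 34.4 CPM to 6.84, 6.19 and 5.84 CPM (−2.53 ± 0.09, adjusted p = 8.25e-56). Col5a1 was the fibrillar collagen without a call (−0.44, adjusted p = 0.12).

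The chaperone and the crosslinking enzymes split. Serpinh1 stood at 2.64, 1.91 and 2.21 CPM against 0.281, 0.346 and 0.212 CPM and rose by 2.98 (SE 0.36, edgeR adjusted p = 1.29e-12). Lox stood at 422, 409 and 424 CPM against 673, 676 and 694 CPM and fell by 0.70 (SE 0.02, adjusted p = 2.60e-60). P4ha1 stood at 218, 220 and 225 CPM against 276, 279 and 264 CPM and fell by 0.30, P4ha2 fell by 1.49 and Plod2 by 0.71. None of these groups overlapped. Loxl2 and Loxl3 had no call (0.80 and −0.04).

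Among the secreted matrix proteins, Tgfbi stood at 1467, 1439 and 1451 CPM against 825, 809 and 802 CPM, a rise of 0.84 ± 0.02 (edgeR adjusted p = 1.25e-74) in an abundant transcript. Fn1, at 12.4, 10.2 and 9.89 CPM against 7.03, 8.93 and 7.86 CPM, rose by 0.45, Sparc by 1.67, Fbn1, the fibrillin gene, by 1.44, Postn, the periostin gene, by 1.02 and Ccn2, a matricellular protein, by 1.79. A gene on the opposite strand covers 20.1% of the exonic length of Fbn1, and another 23.2% of that of Ccn2, and without the strand setting their reads cannot be told apart. Thbs1 fell by 0.32. Of the proteoglycans Bgn rose by 1.94, Vcan fell by 2.29 from 6.58, 9.91 and 6.80 CPM to 1.44, 1.56 and 1.73 CPM, and Dcn had no call (−0.18, adjusted p = 0.577).

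All 3 proteases fell, and of the 3 inhibitors 2 rose. Mmp13, a collagenase, stood at 9.92, 10.1 and 10.3 CPM against 33.3, 31.9 and 33.7 CPM (−1.71 ± 0.08, edgeR adjusted p = 1.49e-42), and Mmp2 stood at 1.25, 1.56 and 1.55 CPM against 10.7, 7.26 and 7.91 CPM (−2.56 ± 0.18, adjusted p = 9.34e-27). Mmp14, at 458, 462 and 450 CPM against 476, 471 and 481 CPM, fell by only 0.06 (adjusted p = 0.0164), and lost its call without ASK1-MKI replicate 3 or control replicate 3. Timp2, a broad inhibitor that also helps Mmp14 activate Mmp2, rose by 0.11, and Timp3 rose by 0.76 with overlapping groups (adjusted p = 0.0351), a call that DESeq2 did not give (adjusted p = 0.139). Timp1 had no call (−0.47, adjusted p = 0.231). Of the genes of stellate cells and myofibroblasts, Vim rose by 0.20, Pdgfrb, a growth factor receptor of stellate cells, fell by 0.77, and Acta2 stood at 8.91, 7.93 and 8.76 CPM against 8.66, 7.43 and 8.18 CPM (0.07, adjusted p = 0.628).

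**Figure D5:**
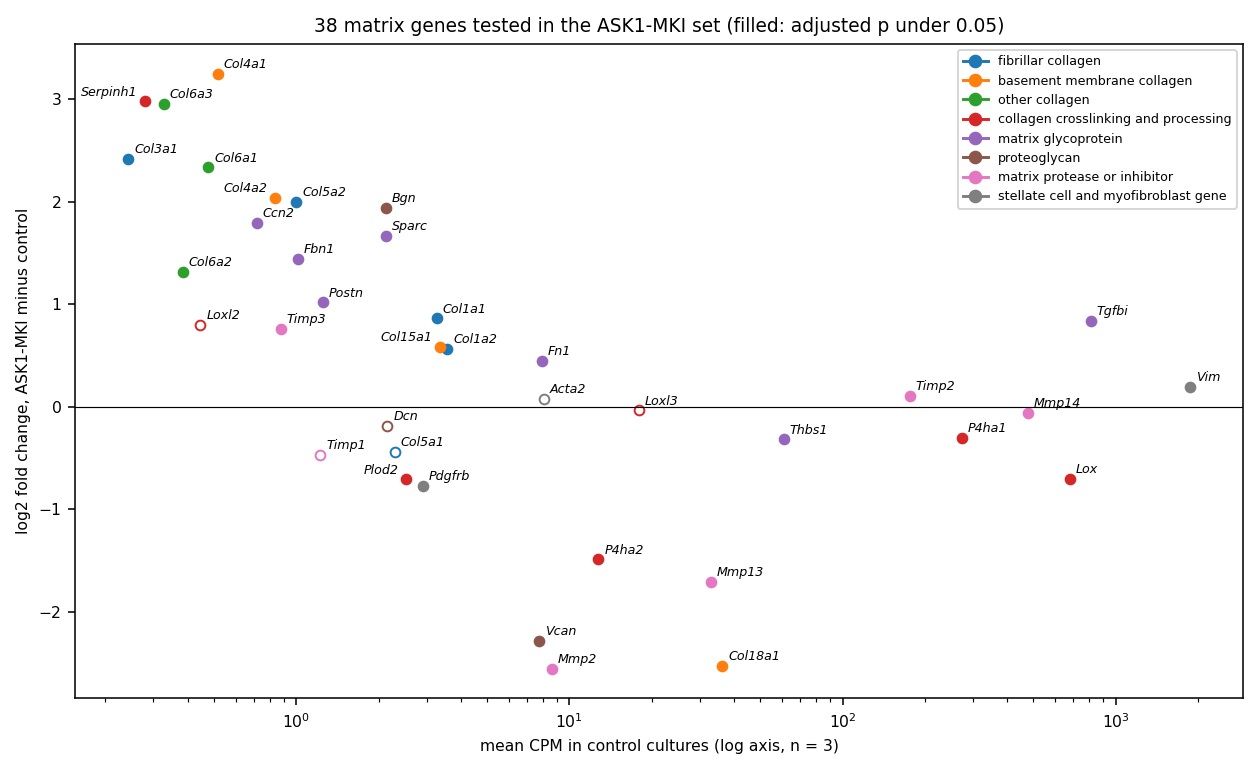
Log2 fold change between ASK1-MKI and control cultures against the mean control CPM (log axis, n = 3) for the 38 matrix genes tested, coloured by role and filled where the adjusted p was under 0.05. Genes under 1 CPM in controls lie above 0, with Col4a1 at 3.25, while Col18a1, Mmp2 and Vcan lie lowest. Some of those under 1 CPM passed the filter on low counts only through ASK1-MKI cultures. Their place above 0 is thus partly set by the filter.

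Markers of other cells were read in the same libraries. The summed level of 10 fibroblast markers was 75.0 to 78.4 CPM in ASK1-MKI and 75.4 to 76.3 CPM in control cultures. That of 12 stellate cell markers was 38.1 to 38.9 and 40.8 to 42.1 CPM. Only 1 of the 10 and 2 of the 12 passed the filter on low counts. These sums rest on few genes and cannot show whether such cells were equally present. Neutrophil markers summed to 288 to 300 CPM against 1198 to 1246 CPM. Of these sums Mmp8, a collagenase of neutrophils, made up 128.9 to 136.1 and 979.1 to 1028 CPM. Kupffer cell markers summed to 296 to 316 against 892 to 916 CPM. Their part in the differences was not tested.

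NFATc3-MKI cultures offered few of these genes for testing. Of the 49, 20 were at 0 in all 6 libraries, among them Col1a2, Col3a1, Lox, Eln and Tgfbi, for which the floor of 3 counts over a group allows 0.122 CPM in controls and 0.114 CPM in NFATc3-MKI cultures. In the control cultures of this set Lox was therefore at 0, whereas in those of the ASK1-MKI set it was at 673 to 694 CPM, although both sets of controls carry the same labelled genotype and culture. Tgfbi, at 0 and at 802 to 825 CPM, and Mmp14, with 0, 0 and 1 counts and at 471 to 481 CPM, differed likewise. The tables were made separately, so this is given as values with no test.

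Of the 8 genes tested in that set, 3 rose and 0 fell, by edgeR's quasi-likelihood test, and over all genes 16.5% were called higher and 16.8% lower. Timp1 stood at 6.56, 6.03 and 9.59 CPM in NFATc3-MKI and at 2.93, 5.23 and 3.06 CPM in control cultures (0.97 ± 0.26, adjusted p = 0.00597). Loxl3, a member of the lysyl oxidase family, stood at 31.2, 25.5 and 33.6 CPM against 22.0, 19.9 and 24.1 CPM (0.45 ± 0.13, adjusted p = 0.00961), although Htra2 covers 11.6% of its exonic length on the opposite strand. Col4a1 stood at 2.15, 2.05 and 1.85 CPM against 0.932, 0.93 and 0.942 CPM, from 18, 19 and 16 counts against 7, 8 and 8 (1.10 ± 0.39, adjusted p = 0.0341). In all 3 the groups did not overlap, which held for 5 of the 8 tested and for 6120 of all 13363 genes. The call of Col4a1 was lost whichever library was left out, and with the replicate block (edgeR adjusted p = 0.0513). Col4a1 had passed the filter on low counts only through its level in NFATc3-MKI cultures, so its direction was partly set by the filter. The call of Timp1 was lost without NFATc3-MKI replicate 3 (adjusted p = 0.0526), and that of Loxl3 without NFATc3-MKI replicate 3 or control replicate 2 (at most 0.0546). DESeq2's Wald test called Timp1 and Loxl3.

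The other 5 genes tested had no call. P4ha1, the most abundant of the crosslinking and processing group, stood at 267, 256 and 234 CPM against 306, 270 and 252 CPM (−0.13, edgeR adjusted p = 0.27). Vim stood at 1136, 1191 and 1125 CPM against 1107, 1008 and 1012 CPM, without overlap (0.14, adjusted p = 0.217), and Col18a1, Tagln and Des stood at −0.30, 0.30 and 0.65. Of the genes below the filter, Mmp13 had 11, 17 and 9 counts against 0, 0 and 1, and Col1a1 had 5, 13 and 11 against 7, 5 and 3. Mmp13 was called with no filter on low counts, and without NFATc3-MKI replicate 3 or any 1 of the controls. Macrophage markers summed to 1943 to 2131 CPM in NFATc3-MKI and 1525 to 1631 CPM in control cultures (5 of 6 tested higher). Lipid-associated macrophage markers summed to 19180 to 23790 against 5839 to 6533 CPM (5 of 8 higher) and liver sinusoidal endothelial markers to 163.3 to 169.7 against 69.0 to 75.9 CPM (2 of 3 tested higher). Their part in these differences was not tested.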

How the data were processed

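Messenger RNA of 16 livers and 12 cultures was sequenced from dUTP strand-marked libraries, per the labels' protocols, and the submitters' processing notes name HISAT2 and mm10. Which program made the counts, and with what annotation and strand option, is not given in the sources used here. Deposited liver values are expected counts (85.42% of them exactly whole as written), which were rounded, and both deposited culture tables hold raw counts. Deeper libraries give smaller counting error, and MDKO replicate 3 had the fewest counts of the livers.

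Each table was fitted alone in R 4.3.3 with edgeR 4.0.16, with genes kept by filterByExpr (13309, 13363 and 11380), scaling by the trimmed mean of M values and the robust quasi-likelihood F test. All 16 livers shared a fit. P-values were adjusted by Benjamini-Hochberg over all genes of a comparison, with a call at an adjusted p under 0.05. Each log2 difference has the second group named subtracted from the first, ± its SE, and an interval is 2 SE to each side. Floors of 3 counts cover counting error only. Positions and exon lengths come from GENCODE vM21.

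The 49 genes, the lists of other matrix genes and the marker lists were chosen with earlier results of these data known. The rule for named genes took 12 anchor genes and every called gene in each comparison, with the extremes of each group of genes, and others were named for their overlap or level with values known. The alternatives tried were leaving out each library, fitting only the 2 compared groups, the replicate block, no filter, and DESeq2 1.42.0, by its size factors alone or its Wald test. The edgeR step was tested on simulated counts. Same-numbered MDKO and Lyz2-Cre livers deviated from their group means together (correlations across genes of 0.239 to 0.528 in 4 pairs), which comes from the data and not from the labels. One of the further matrix genes is not reported here.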

Additional observations from a re-analysis of the deposited data

Results flagged for a closer look

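Of 84 groups of 4 livers examined for a single library far from its group (Dixon's test at its 95% critical value), 4 were past the limit, and about 1 in 20 groups would be by chance. Lox stood at 1.66 CPM in Lyz2-Cre replicate 2 against 0.374 to 0.516 CPM in the other controls, and Vcan at 1.45 CPM in the same liver against 0.121 to 0.206 CPM. P4ha2 stood at 3.87 CPM in Lyz2-Cre replicate 4 against 4.91 to 5.10 CPM. Serpinh1 stood at 15.6 CPM in ASK1-MKO replicate 4 against 11.7 to 12.1 CPM.

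The difference that goes with the ASK1 knockout label differed with the NFATc3 knockout label, by edgeR's test of the interaction, for P4ha1 (1.17 on the log2 scale, adjusted p = 0.0186) and Lox (−2.96, adjusted p = 0.043).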

How the results depend on the processing

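The counts of matrix genes called moved with the test, the samples in the fit and single livers. DESeq2's Wald test called 14 genes for NFATc3-MKO against Lyz2-Cre, 17 for MDKO against NFATc3-MKO, 20 for NFATc3-MKO against ASK1-MKO and 7 for the interaction. With only the 2 groups compared the first 3 gave 0, 0 and 5 (all genes 1.68%, 2.18% and 5.14%). ASK1-MKO against Lyz2-Cre then gave 1 (all genes 11.4%). With no filter MDKO against ASK1-MKO gave 0 (all genes 4.75%) and the interaction 1 (all genes 10.1%). With a library left out the counts ran from 0 to 27 for NFATc3-MKO against Lyz2-Cre, 2 to 25 for MDKO against NFATc3-MKO, 0 to 1 for MDKO against ASK1-MKO, 4 to 35 for NFATc3-MKO against ASK1-MKO, 1 to 18 for the interaction and 1 to 3 for NFATc3-MKI. They were 0 for ASK1-MKO and for MDKO against Lyz2-Cre, and 31 to 33 for ASK1-MKI. Of the values of named genes under the alternatives, 2266 kept their side of the threshold, 141 lost and 49 gained a call, and 0 reversed a call. A change of sign without a call in either fit was counted as keeping its side. Such changes occurred: Col1a1 in MDKO against Lyz2-Cre ran from −0.412 to 0.702 with a library left out. The cause was not tested.

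With the replicate block the count was 9 for NFATc3-MKO against Lyz2-Cre, 14 for NFATc3-MKO against ASK1-MKO, 5 for the interaction and 0 for MDKO against ASK1-MKO. Of all genes 11.6%, 16.3%, 19% and 10.2% were called in these fits. In MDKO against Lyz2-Cre the block changed no call, and only there did all 8 libraries correlate best with their own number. In the other comparisons the lowest pair correlations were −0.206 to 0.044. Some of their pairs did deviate together, as replicates 2 of NFATc3-MKO and Lyz2-Cre did, with a correlation of 0.561. In ASK1-MKO against Lyz2-Cre, 6 of 8 libraries correlated best with their own number. Whether same-numbered libraries of these comparisons belong together is not settled. Lox, Timp1 and Vcan lay under 1 CPM in 3 of the 4 control livers and rest on few reads there, which limits their precision.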

Other observations

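A list of 146 further matrix genes was read in the same fits. In NFATc3-MKO against Lyz2-Cre livers, 7 of the 103 tested rose and 2 fell, by edgeR's quasi-likelihood test, while over all genes 3.77% were called higher and 4.67% lower. Among those with the smallest p, Mmp7, a matrix metalloprotease, rose by 3.15 on the log2 scale (14.0 against 1.55 CPM, adjusted p = 0.0275), and Plat, the tissue plasminogen activator, by 2.32 (7.80 against 1.55 CPM, adjusted p = 0.0247). Spp1, osteopontin, rose by 1.86 (266 against 73.2 CPM, adjusted p = 0.0241) and Smoc2, a matricellular protein, by 0.70 (adjusted p = 0.0273). Bmp1, which cleaves the C-terminal propeptide off fibrillar procollagen, fell by 0.53 (60.2 to 41.7 CPM, adjusted p = 0.0127). In ASK1-MKO livers Smoc2 fell by 0.81 (adjusted p = 0.0111), Lamb3, a laminin chain, by 0.87 (adjusted p = 0.00316) and Plod1, a lysyl hydroxylase, by 0.48 (adjusted p = 0.013), while Mia3, which helps to export procollagen from the endoplasmic reticulum, rose by 0.67 (adjusted p = 0.0175). NFATc3-MKO and ASK1-MKO livers differed with the smallest p in Smoc2 (58.3 against 20.5 CPM, 1.51, adjusted p = 8.99e-05).

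In ASK1-MKI cultures 3 of 12 other matrix proteases and inhibitors tested were called higher and 5 lower, with differences from −5.21 to 2.55, while over all genes 24.6% were called higher and 24.5% lower. Mmp9, a gelatinase, stood at 0.668 against 24.6 CPM (−5.21, edgeR adjusted p = 1.00e-39) and Mmp8 at 131.7 against 999.3 CPM (−2.92, adjusted p = 1.13e-124). Plau, the urokinase gene, rose by 0.63 (adjusted p = 1.86e-29), Lamc1, a laminin chain, fell by 0.68 and Spp1 by 0.55. In NFATc3-MKI cultures Spp1 rose by 2.17 (19200 against 4258 CPM, adjusted p = 9.17e-13) and Srgn, the serglycin gene, by 0.93, while P4hb, a subunit of prolyl 4-hydroxylase, fell by 0.58 (2010 to 1344 CPM, adjusted p = 2.54e-05). Spp1 was lower than its controls in ASK1-MKI and higher in NFATc3-MKI cultures, in tables fitted apart, and the difference between the sets was not tested.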
